A study of Mus musculus with 26 samples.

Results

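The genes Mgarp, Bok, Cartpt, Cntnap2, Cntnap4, Scgn, Orm3, Pla2g5 and Mab21l1 were described in RNA labelled as immunoprecipitated from astrocytes of the optic nerve head (ONH), the myelinated optic nerve proper (ONP) and the retina of the mouse. They are 9 of the 54532 genes of the deposited count table, matched by symbol, and were selected on their counts in these libraries, being among the genes that differed most surely between ONH and ONP in earlier results of these data. The ONH to ONP differences of these 9 genes are therefore given as descriptions without a test. The choice was not made on the retinal contrast, where RNA from the immunoprecipitation (IP) was set beside the input RNA that had not been enriched. That contrast is not wholly independent, because the retina IP libraries shared the estimate of spread in the ONH to ONP fit used here. No threshold was stated for the choice. Ranked by the unadjusted p of the fit used here, the 9 genes held ranks 1, 2, 3, 5, 6, 9, 10, 12 and 13 of 16355 genes tested. Cntnap4 was the last of them at rank 13, and Chrna3 followed at rank 14.

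The study asked how retinal astrocytes differ from their tissue and from the astrocytes of the ONH and ONP. There were 7 ONH IP, 7 ONP IP, 6 retina IP and 6 retina input libraries, all labelled day 0 and taken from untreated animals without surgery or drug named. Replicates 1 to 6 of ONH IP and ONP IP formed batch 1, taken from an earlier study, while all 12 retinal libraries and replicate 7 of ONH IP and ONP IP formed batch 2. These replicates 7 were prepared with the retinal libraries to link the batches and are called the bridging libraries here. The labels do not name the tagged protein, the promoter that drives it, the strain or the age. They do not tie libraries to animals, and the p-values therefore measure only the spread between these libraries, which may be technical. Poly(A) RNA was captured on oligo-dT beads and amplified with an ultra-low input kit. Levels are in CPM, counts scaled to a common library total, with TMM factors that correct the totals for composition.

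The ONH is the unmyelinated stretch where the axons of retinal ganglion cells leave the eye through a mesh of astrocytes, and the ONP is the myelinated nerve behind it. Immunoprecipitation of RNA from a tagged cell type enriches its transcripts, and RNA of neighbouring cells can be carried along. The 9 genes have no shared function in the textbooks. They cover a mitochondrial protein, adhesion proteins, a developmental protein, a calcium sensor, a neuropeptide precursor, a lipase, a cell death protein and a plasma protein. Because these are bulk libraries, fewer cells that hold a transcript and less transcript per cell cannot be told apart.

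Totals lay between 11164619 and 27431026 counts per library. Astrocyte markers were abundant in both nerve regions: the summed level of 10 markers was 15651 to 30082 CPM in batch 1 ONH libraries and 15548 to 36788 CPM in batch 1 ONP libraries, against 6347 and 11585 CPM in the bridging ONH and ONP libraries. With all IP libraries and a batch term, edgeR's quasi-likelihood test called none of the 10 between ONH and ONP at an adjusted p under 0.05. In that fit 2 were lower in ONH at an unadjusted p under 0.05, and DESeq2 and limma-voom called 0. In batch 1 alone and with only the 14 nerve libraries, edgeR called 1 of the 10 lower in ONH, against 8.01% and 7.85% of all genes. In retina IP the same markers summed to 17461 to 30212 CPM in replicates 2, 3 and 4 but to 6163 to 8812 CPM in replicates 1, 5 and 6, against 3737 to 6075 CPM in input. Mature oligodendrocyte markers were above the astrocyte sums in the nerve, at 28266 to 74289 CPM in batch 1 ONH and 36936 to 126580 CPM in batch 1 ONP, and 30712 and 90941 CPM in the bridging ONH and ONP libraries. The batches also differed in 4 Y-linked genes, whose sum was 702 counts or more in all libraries of batch 1 and never above 1 count in those of batch 2. Markers of retinal cells stood apart in the bridging ONH library: 8 rod photoreceptor markers summed to 40422 CPM there, against 36.0 to 672 CPM in batch 1 ONH libraries, 3.95 to 63.2 CPM in batch 1 ONP libraries and 539 CPM in the bridging ONP library. The same markers summed to 859 to 10794 CPM in retina input and 559 to 2280 CPM in retina IP, so the bridging ONH library exceeded every retinal library. Batch 1 and bridging values are therefore given apart.

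Of the 9 genes, 7 had every ONH library above every ONP library, a pattern that 183 of 16355 genes tested, 1.12%, showed. The exceptions, Cntnap4 and Scgn, overlapped only through 1 ONH library each with 0 or 1 counts. At an adjusted p under 0.05 edgeR called 1223 of the 16355 genes, 7.48%. As the choice of the 9 genes used this contrast, nothing is read from their number. All 9 passed the filter on low counts, which kept genes with at least 10 counts in enough libraries, but Cntnap4, Scgn and Orm3 had 2, 7 and 2 counts in all 7 ONP libraries and passed through their ONH or retinal libraries.

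**Figure D1:**
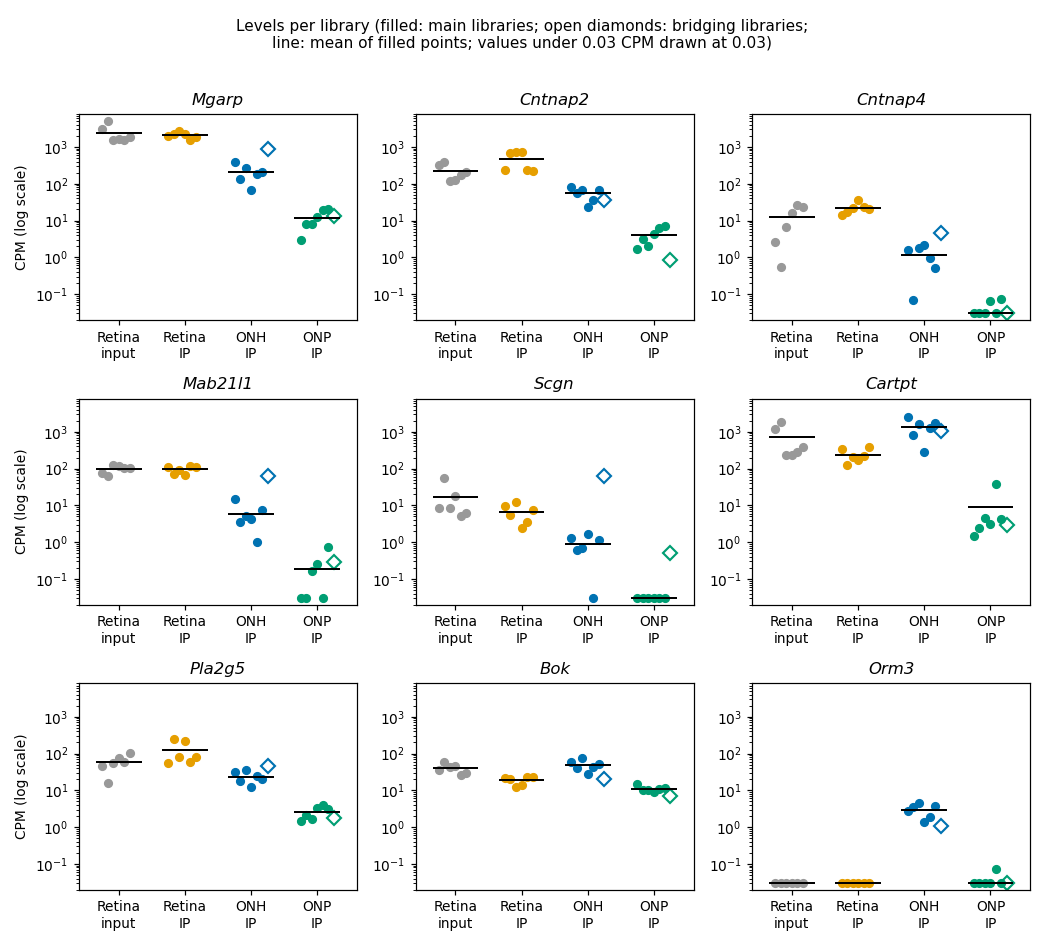
Level of each of the 9 genes in every library, in CPM on a logarithmic axis with values of 0 drawn at the foot, for ONH IP, ONP IP, retina IP and retina input. Bridging libraries have their own symbol. ONH libraries lie above ONP libraries for 7 genes, the retinal libraries lie highest for Mgarp, Cntnap2 and Mab21l1, and Orm3 was at 0 in all 12 retinal libraries.

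Mgarp (ENSMUSG00000037161, chr3:51388412-51396738, minus strand, mm10) encodes a protein of the outer mitochondrial membrane that takes part in the transport of mitochondria in neurons and is induced under low oxygen. In batch 1 ONH libraries its level was 67.3 CPM at the lowest, 195 at the median and 391 at the highest, and 899.8 CPM in the bridging library. In ONP it was 3.05, 10.4 and 20.1 CPM in batch 1 and 13.3 CPM in the bridging library. Every ONH library was thus above every ONP library, by 17.6-fold in means within batch 1 and 67.5-fold between the bridging libraries. The fitted log2 difference was 4.39 (SE 0.446, n = 7 and 7). Mgarp was still more abundant in the retina, at 1509.8, 2095 and 2684 CPM in IP and 1518, 1766 and 4929 CPM in input, and no retinal library overlapped ONH. IP and input of the retina overlapped, with a log2 difference of -0.12 (SE 0.337, adjusted p = 0.889, edgeR).

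Cntnap2 (ENSMUSG00000039419, chr6:45059357-47304213, plus strand) encodes Caspr2, the adhesion protein that gathers potassium channels beside the nodes of Ranvier. Its lowest, median and highest levels were 22.6, 62.0 and 80.7 CPM in batch 1 ONH and 1.65, 3.71 and 7.32 CPM in batch 1 ONP, with 36.1 and 0.865 CPM in the bridging pair. The ONH and ONP libraries did not overlap, and the ratio of means was 13.4 in batch 1 and 41.7 between the bridging libraries (fitted log2 difference 3.92, SE 0.444). In the retina the levels were 219, 461 and 746 CPM in IP and 118, 185 and 390 CPM in input, all above ONH. Retina IP replicates 2, 3 and 4 held 683, 746 and 711 CPM, while replicates 1, 5 and 6 held 232, 239 and 219 CPM. The same 3 libraries were high for Pax8, at 253, 310 and 377 CPM against 30.2, 42.6 and 42.4 CPM. They were also those with the high astrocyte sums, with more of the Müller glia markers (9340.5 to 10477 against 3739.5 to 6446 CPM) and with less of the ganglion cell markers (855 to 1964 against 4608 to 4921 CPM), and the part of this in the Cntnap2 levels was not tested. The retinal log2 difference of 1.21 (SE 0.443) was not called by edgeR (unadjusted p = 0.0157, adjusted p = 0.127).

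Cntnap4 (ENSMUSG00000031772, chr8:112570043-112882717, plus strand), a relative of Caspr2 known from the synapses of interneurons, was scarce in the nerve. Its ONH levels were 0.0689, 1.29 and 2.20 CPM in batch 1 and 4.54 CPM in the bridging library, 248 counts in all. Only 2 counts fell in the 7 ONP libraries, 1 each in replicates 4 and 6. That is a ratio of 109 with a 95% Poisson interval, for counting error only, of 29.9 to 907. The single count of ONH replicate 2 put it within the ONP range, and the other ONH libraries were above it. Retina IP held 13.7, 21.5 and 35.2 CPM, above every ONH library. Retina input held 0.544, 11.2 and 25.8 CPM, and its lowest libraries, inputs 2 and 1 at 0.544 and 2.56 CPM, overlapped ONH. The IP to input log2 difference was 0.91 (SE 0.64, adjusted p = 0.441, edgeR). Of the Cntnap4 transcript's 31-base words 7.71% occur in other genes, nearly all in Gm45904 on the opposite strand, which had 0 counts in the nerve libraries and 3 in the retina.

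Mab21l1 (ENSMUSG00000056947, chr3:55782510-55785001, plus strand) belongs to a family required for eye development. Its batch 1 ONH levels were 0.984, 4.67 and 14.6 CPM, and the bridging ONH library held 61.4 CPM. In ONP the batch 1 levels were 0, 0.0834 and 0.732 CPM, with 0.288 CPM in the bridging library. The ratio of means was 31.2 within batch 1 and 213 between the bridging libraries, and the groups did not overlap (fitted log2 difference 5.62, SE 0.698). Retinal levels were 67.5, 99.6 and 120 CPM in IP and 62.6, 103 and 129 CPM in input, above every ONH library. They gave a log2 difference of 0.02 (SE 0.238, adjusted p = 0.976, edgeR), a sign that changed with the scaling. Mab21l1 lies on the opposite strand within Nbea, and 951 of its 2462 transcript words, 38.6%, are shared with it. The sources used here do not say whether quantification used strand, so reads of these 2 genes may not be told apart. Nbea itself averaged 10.7 CPM (SD 3.91, n = 6) in batch 1 ONH and 11.1 CPM (SD 2.32, n = 6) in batch 1 ONP, with overlapping libraries, and 53.7 and 18.7 CPM in the bridging ONH and ONP libraries. The related Mab21l2 averaged 17.0 CPM in ONH and 11.5 CPM in ONP with overlap, and was not called (log2 difference 0.55, SE 0.294, adjusted p = 0.278, edgeR).

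Scgn (ENSMUSG00000021337, chr13:23953456-23991214, minus strand) encodes secretagogin, an EF-hand calcium sensor found in retinal cone bipolar cells. Its ONH levels were 0, 0.920 and 1.68 CPM in batch 1 and 61.6 CPM in the bridging library. In ONP it had 0 counts in all 6 batch 1 libraries and 7 counts, 0.504 CPM, in the bridging library. Within batch 1 this is 111 counts against 0, at least 34.4-fold higher at a floor of 3 counts over the group. Between the bridging libraries the ratio was 122, and over all 14 libraries 1468 against 7 counts gave 185 (95% counting interval 89.5 to 461). A single library thus carried 1357 of the 1468 ONH counts. Retinal levels were 2.49, 6.38 and 12 CPM in IP and 5.29, 8.50 and 54.1 CPM in input, so the bridging ONH library exceeded every retinal library while the batch 1 ONH libraries lay below them. IP and input overlapped (log2 difference -1.23, SE 0.601, adjusted p = 0.245, edgeR).

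Cartpt (ENSMUSG00000021647, chr13:99898489-99901091, minus strand) encodes the precursor of the neuropeptide CART, which in the retina marks a class of ganglion cells. In the batch 1 ONH libraries it stood at 285, 1432 and 2533 CPM, and at 1069.7 CPM in the bridging library. In ONP it was 1.45, 3.71 and 37.9 CPM in batch 1 and 2.95 CPM in the bridging library. Replicate 5 alone held the 37.9 CPM, and the other ONP libraries stayed at or below 4.56 CPM. The ratio of means was 154 in batch 1 and 362 between the bridging libraries, with a fitted log2 difference of 7.39 (SE 0.785) that became 8.73 without ONP replicate 5. Unlike Mgarp, Cntnap2 and Mab21l1, Cartpt had its highest group mean in ONH. Retina IP held 126, 217 and 386 CPM and retina input 228, 336 and 1857 CPM, each overlapping ONH.

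In retina IP Cartpt had a lower mean than in input, 241 (SD 99.4, n = 6) against 701 CPM (SD 680, n = 6), but the libraries overlapped. Inputs 1 and 2 held 1213 and 1857 CPM and the other 4 inputs 228 to 391 CPM. These inputs also had the highest shares of mitochondrial counts, 8.16% and 15.2%, and the part of this in the difference was not tested. The log2 difference was -1.46 (SE 0.536, unadjusted p = 0.0158, adjusted p = 0.128, edgeR), -0.95 without input 2, and was called by DESeq2 (adjusted p = 0.0285, against up to 0.274 in the other alternatives without a replicate block). Upstream of the RefSeq start of Cartpt stands a cAMP response element, the site through which CREB is known to act on this gene. It is shown because Cartpt was the most abundant of the 9 genes in ONH per length. The 30 bases lie at chr13:99900777-99900806, minus strand, in RefSeq's GRCm38.p6, with the element TGACGTCA in capitals, its first base 112 before the start. The longer GENCODE transcript takes these bases into its first exon.
Cartpt: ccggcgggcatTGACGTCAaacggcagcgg
The element reads the same on both strands, and 508 of 32851 RefSeq windows of the same 250 bases before a start, 1.55%, hold it.

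Pla2g5 (ENSMUSG00000041193, chr4:138799244-138863482, minus strand) encodes the secreted group V phospholipase A2, which frees fatty acids from membrane lipids. Its ONH levels were 12.2, 22.0 and 35.9 CPM in batch 1 and 44.5 CPM in the bridging library, against 1.5, 2.62 and 4.00 CPM and 1.73 CPM in ONP. No ONP library reached an ONH library, and the ratios were 8.98 in batch 1 and 25.7 between the bridging libraries (fitted log2 difference 3.35, SE 0.409). Retina IP held 56.5, 82.1 and 252 CPM, above all ONH libraries, and retina input 16.1, 57.5 and 101 CPM, overlapping them. IP replicates 2 and 4 were the high ones, at 252 and 216 CPM. The IP to input log2 difference of 1.20 (SE 0.482) was not called by edgeR (unadjusted p = 0.0250, adjusted p = 0.157).

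Bok (ENSMUSG00000026278, chr1:93685660-93695764, plus strand), a pore-forming member of the BCL2 family that promotes apoptosis, showed the smallest ONH to ONP ratio of the 9 genes but a narrow spread. Its ONH levels were 28.3, 46.9 and 73.7 CPM in batch 1 and 20.6 CPM in the bridging library. The ONP levels were 9.17, 10.7 and 14.7 CPM and 7.06 CPM. The groups did not overlap, with ratios of 4.43 in batch 1 and 2.92 between the bridging libraries (fitted log2 difference 2.06, SE 0.211). Bok averaged more in batch 1 ONH than in retina IP, which is in batch 2, and retina IP overlapped ONP. The bridging ONH library, in the same batch as the retina, lay within the retina IP range of 12.4 to 23.4 CPM.

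In the retina all 6 IP libraries held less Bok than any input library, with 12.4, 20.9 and 23.4 CPM in IP and 25.4, 40.4 and 58.4 CPM in input. The log2 difference was -0.98 (SE 0.268, unadjusted p = 0.00248) and just missed the threshold after adjustment over all genes (adjusted p = 0.0693, edgeR). The call depended on the fit: the adjusted p was 0.00351 in DESeq2, 0.00444 with all 26 libraries in one edgeR fit, and up to 0.166 when single libraries were left out. Over all alternatives the log2 difference stayed between -1.09 and -0.88.

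Orm3 (ENSMUSG00000028359, chr4:63356162-63359511, plus strand) encodes an orosomucoid, a lipocalin of the acute-phase response made chiefly in liver, and was the only one of the 9 genes without a count in the retina. Its levels were 1.39, 3.10 and 4.63 CPM in batch 1 ONH and 1.04 CPM in the bridging library, 381 counts in all. ONP held 2 counts, both in replicate 5, a ratio of 168 (95% counting interval 46.2 to 1391). All 12 retinal libraries had 0 counts. At a floor of 3 counts over the group, the 7 ONH libraries pooled were at least 120-fold above retina IP and at least 84.3-fold above retina input. These bounds cross the batches, since 358 of the 381 ONH counts were in batch 1 and the retina is in batch 2. The bridging ONH library, in the same batch as the retina, held 23 counts. Without a count there, Orm3 was not tested in the retina.

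Its neighbour Orm2, which follows Orm3 on the same strand after 2937 bases, had a like pattern. Orm2 had 2.44, 11.8 and 14.9 CPM in batch 1 ONH, 5.36 CPM in the bridging library, 0 to 1.61 CPM in ONP and 0 counts in every retinal library. It was higher in ONH than in ONP by 4.00 on the log2 scale (SE 0.696, adjusted p = 0.00407, edgeR) without overlap. Pooled over both batches, ONH was at least 416-fold above retina IP and 293-fold above retina input for Orm2 at the same floor. Of its 1324 ONH counts, 1206 were in batch 1 and 118 in the bridging library, so these bounds also cross the batches. The third gene of the cluster, Orm1, had 3 counts, all in ONH replicate 6. Longest transcripts of Orm3 and Orm2 are 88.0% identical, and 9.42% of the 31-base words of Orm3 also occur in Orm2, so a share of their reads may be divided uncertainly.

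The upstream windows of this pair are shown because both genes were high in ONH and absent from the retinal counts. They are the 250 bases before each RefSeq start in GRCm38.p6, plus strand, at chr4:63355908-63356157 for Orm3 and chr4:63362199-63362448 for Orm2. Capitals mark the TATA box TATAAA and the C/EBP-type motif TTGCNNAA, a form of the site bound by C/EBP factors that drive acute-phase genes. The stretch in Orm2 matches on both strands and that in Orm3 on the plus strand.
Orm3: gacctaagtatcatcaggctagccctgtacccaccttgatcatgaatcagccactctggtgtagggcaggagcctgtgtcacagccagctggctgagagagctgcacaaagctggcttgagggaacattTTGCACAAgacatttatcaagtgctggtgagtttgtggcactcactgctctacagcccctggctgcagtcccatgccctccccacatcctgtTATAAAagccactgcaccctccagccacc
Orm2: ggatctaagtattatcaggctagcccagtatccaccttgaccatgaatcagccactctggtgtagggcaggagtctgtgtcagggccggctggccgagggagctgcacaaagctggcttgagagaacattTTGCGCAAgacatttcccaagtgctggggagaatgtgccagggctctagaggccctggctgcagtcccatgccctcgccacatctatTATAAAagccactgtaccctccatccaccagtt
Counted from the base before the start as -1, the C/EBP match begins at -121 in Orm3 and -120 in Orm2, and the TATA box at -29 and -33. These windows are identical at 218 of 255 aligned columns, 85.5%. Searched on both strands, TATAAA occurs in 12.4% and TTGCNNAA in 9.56% of all 32851 windows, and the motifs do not overlap here. Windows were found for 7 of the 9 genes, not for Mab21l1 and Cntnap4. The hypoxia response element core ACGTG, present in 16.6% of windows, was found in those of Mgarp and Cntnap2.

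Per kilobase of merged exons, the batch 1 ONH mean was highest for Cartpt at 1078 CPM per kb, followed by Mgarp at 102, Bok at 26.9, Pla2g5 at 8.18 and Cntnap2 at 5.41 CPM per kb. Orm3, Mab21l1, Scgn and Cntnap4 lay at 3.84, 2.40, 0.561 and 0.189 CPM per kb. In retina IP the order differed, with Mgarp at 1010 CPM per kb above Cartpt at 189, Cntnap2 at 46.0 and Pla2g5 at 43.1 CPM per kb.

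The genes were not chosen on the contrast of retina IP with input, although the retina IP libraries shared the estimate of spread in the ONH to ONP fit. Of the 9 genes, 8 could be tested in the retina. None of the 8 was called by edgeR at an adjusted p under 0.05, as was true of 0 of all 15181 genes tested (0%), while 3356 of them had an unadjusted p under 0.05, DESeq2 called 2032 and limma-voom 0. At an unadjusted p under 0.05, 4 of 8 passed (Cntnap2, Pla2g5, Cartpt and Bok) against 22.1% of all genes, with Cntnap2 and Pla2g5 higher and Cartpt and Bok lower in IP. Bok was the 1 of 8 whose IP and input libraries did not overlap, against 4.27% of all genes. DESeq2 called 2 of 8, Bok and Cartpt, against 13.4% of all genes, limma-voom called 0, and the edgeR fit over all 26 libraries called 1, Bok, against 16.7%. The differences of Mgarp and Mab21l1 were smaller than their SEs.

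**Figure D2:**
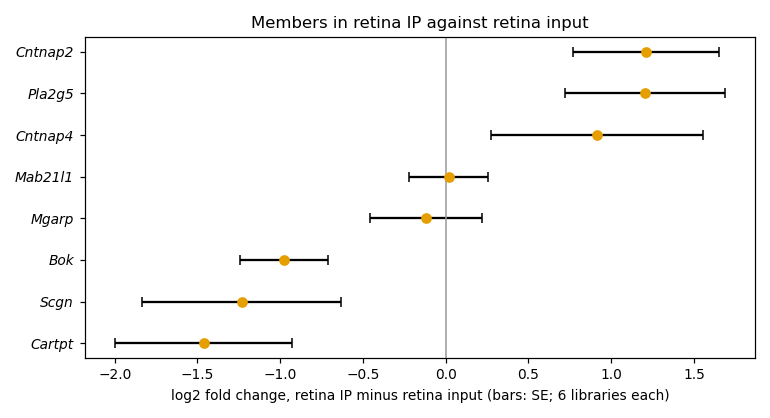
Fitted log2 difference between retina IP and retina input for the 8 genes that could be tested, with SE as bars and 6 libraries in each group. Cntnap2, Pla2g5 and Cntnap4 lie to the right, Bok, Scgn and Cartpt to the left, and Mgarp and Mab21l1 at 0.

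Since 5 of the 9 genes had a higher mean in retina IP than in ONH, and 6 a higher mean in retina input, each gene's nerve level was set against its retina input mean, together with the markers of retinal cells. In batch 1 ONH, Mab21l1, Mgarp, Cntnap4 and Scgn stood at 6.02%, 8.63%, 9.61% and 5.38% of their retina input means. The median rod marker stood at 9.38% and the median bipolar marker at 12.8%. In batch 1 ONP these 4 genes were at 0 to 0.490%, the rod median at 0.579% and the bipolar median at 0.410%. Cntnap2 at 25%, Pla2g5 at 40.3%, Bok at 125% and Cartpt at 196% were above the rod and bipolar medians in batch 1 ONH. The median Müller glia marker stood at 51.8% there and 32.7% in batch 1 ONP, above Cntnap2 and Pla2g5 and below Bok and Cartpt in batch 1 ONH. Ganglion cell markers had a median of 0.920% and amacrine and horizontal cell markers of 0.176% in batch 1 ONH. Rod percentages lean on retina inputs 3 and 4, whose rod markers summed to 6293 and 10794 CPM, against 859 to 2113.5 CPM in the other inputs.

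The bridging ONH library gave another picture, with the rod median at 1181% and the bipolar median at 394% of the retina input mean. Scgn reached 365% in it, while Mab21l1, Mgarp and Cntnap4 reached 61.8%, 37.0% and 36.7%. Pla2g5 rose to 76.0%, whereas Cntnap2, Bok and Cartpt were lower than in batch 1, at 16.3%, 52.0% and 153%.

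**Figure D3:**
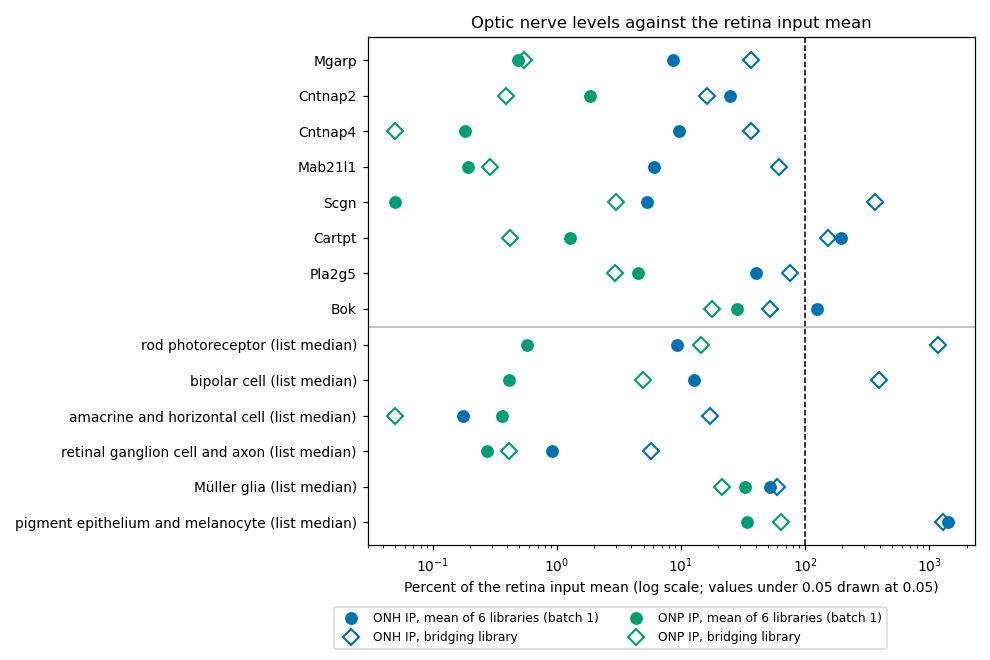
Mean level in batch 1 ONH, the bridging ONH library and batch 1 ONP as a percent of the retina input mean, on a logarithmic axis, for 8 genes and for the median marker of retinal cell types. Scgn at 365% is near the bipolar median of 394% in the bridging ONH library, and Cartpt at 196% and Bok at 125% lie above 100% in batch 1 ONH.

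Between ONH and ONP, edgeR called 8 of 8 rod markers, 5 of 8 bipolar markers and 6 of 8 pigment epithelium and melanocyte markers higher in ONH, against 4.43% of all genes. With batch 1 alone 6 of 6, 2 of 3 and 5 of 7 tested markers were higher, against 8.57% of all genes. Without the bridging ONH or the bridging ONP library 8 of 8, 3 of 8 and 6 of 8 were higher, against 3.97% and 4.06% of all genes. The summed bipolar level overlapped in batch 1, at 32.8 to 50.5 CPM in ONH and 22.9 to 37.5 CPM in ONP. Of the Müller glia markers 3 of 6 were higher in ONH (Rlbp1, Dkk3 and Crabp1), 2 of 5 in batch 1 alone and 1 of 6 without the bridging ONH library or without the bridging ONP library. Their summed level was 2043 to 3282 CPM in batch 1 ONH and 1381 to 1861 CPM in batch 1 ONP. The summed level of 8 pigment markers was 36.1 to 423 CPM in batch 1 ONH, 397 CPM in the bridging ONH library, 8.95 to 21.9 CPM in batch 1 ONP and 21.9 to 53.6 CPM in the retina. Of the ganglion cell markers, 3 of 10 were higher, namely the neurofilament genes Nefl, Nefm and Nefh. Among myelin and precursor markers, 1 of 10 oligodendrocyte and 3 of 8 oligodendrocyte precursor markers were lower in ONH, against 3.04% of all genes. These counts depended on the libraries, with 6 of 10 and 5 of 8 lower in batch 1 alone (8.01% of all genes). A fit of the 14 nerve libraries called 9 of 10 and 6 of 8 lower (7.85% of all genes). The part of these cell markers in the ONH levels of the 9 genes was not tested.

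Among the batch 1 ONH libraries, replicate 4 had the lowest level of 6 genes, Mgarp, Cntnap2, Cartpt, Pla2g5, Bok and Orm3, and the highest of Cntnap4 and Scgn. Replicate 1 was highest for Mgarp, Cntnap2, Mab21l1 and Cartpt, and replicate 3 for Pla2g5, Bok and Orm3. In replicate 4 the astrocyte markers summed to 21245 CPM, within the range of the others, the rod markers to 475 CPM and the pigment markers to 75.9 CPM, the latter below 4 of the other 5 libraries. Replicate 4 also had the highest sum of oligodendrocyte markers of these 6 libraries, 74289 CPM, and the lowest of Müller glia markers. In the order of falling Mgarp, replicates 1, 3, 6, 5, 2 and 4, the oligodendrocyte sums were 35458, 28266, 62334, 30903, 66615 and 74289 CPM. The part of these markers in the spread of the 9 genes was not tested. Mgarp, Cntnap2, Cartpt, Pla2g5 and Bok varied together, with Pearson's r from 0.73 to 0.98 over the 10 pairs and 6 libraries. Mgarp and Cartpt were closest, at r = 0.98. Over all 36 pairs of the 9 genes r ran from -0.39 to 0.98, and Scgn and Cntnap4 were near 0 or negative with most of the other genes. These 6 ONH libraries share a batch, dissection and amplification, and the correlations are descriptions. In the 6 retina IP libraries, pairs among Mgarp, Cntnap2, Cartpt, Pla2g5 and Bok ran from r = -0.85 (Cntnap2 and Bok) to r = 0.85 (Mgarp and Cntnap2). These genes therefore did not vary together there.

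Genes whose log2 levels over all 26 libraries were most like those of each gene were found by Pearson's r, which here reflects mostly the 4 groups and both batches. Vax2, a ventral eye transcription factor, was the nearest to both Mab21l1 (r = 0.98) and Mgarp (r = 0.96). Ldha, the muscle-type subunit of lactate dehydrogenase, was the nearest to Cntnap2 (r = 0.95) and the next nearest to Pla2g5 (r = 0.91), after Colgalt2 (r = 0.92). Scgn was most like Platr17 (r = 0.96) and the cone opsin Opn1mw (r = 0.94). Orm3 was most like the melanosome gene Pmel (r = 0.93), which averaged 59.8 CPM in ONH, 1.75 in ONP, 1.35 in retina IP and 2.13 in retina input. Cntnap4 was most like Tbx3 (r = 0.94), Cartpt like Ngrn (r = 0.93) and Bok like Synj2bp (r = 0.87).

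Relatives of the 9 genes, from lists drawn up by function, were compared between ONH and ONP in the same edgeR fit. Over all genes tested that fit called 4.43% higher and 3.04% lower in ONH. Among 13 contactins and contactin-associated genes other than the members, 1 was higher and 1 lower in ONH: the adhesion gene Chl1 by 1.13 (SE 0.275, adjusted p = 0.0180) and Cntn1 at -0.97 (SE 0.231, adjusted p = 0.0162), on the log2 scale. Both missed the threshold with all 26 libraries in one fit (adjusted p = 0.0513 and 0.0543). Cntnap1, the paranodal relative, averaged 1.33 CPM in ONH and 0.831 CPM in ONP and was not called (adjusted p = 0.515). Of 19 BCL2 family genes, edgeR, DESeq2 and limma-voom called none over the 20 IP libraries, and 1 was higher at an unadjusted p under 0.05. In batch 1 alone edgeR called 2 of 19 higher, against 8.57% of all genes. It called 1 of 19 higher with the 14 nerve libraries (7.66% of all genes) and without the bridging ONH or ONP library (3.97% and 4.06%). Bax, the close relative of Bok, averaged 68.0 CPM in ONH and 56.6 CPM in ONP. Of 10 phospholipase A2 genes, the same tools called none over the 20 IP libraries, with 2 higher and 1 lower at an unadjusted p under 0.05. In batch 1 alone and with the 14 nerve libraries edgeR called 1 of 9 lower, against 8.01% and 7.85% of all genes.

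Among 22 genes of mitochondrial movement and shape, only the kinesin Kif5c rose, by 1.09 on the log2 scale (SE 0.286, adjusted p = 0.0263, edgeR), without overlap of the libraries. That call was lost without ONH replicate 1, ONP replicate 1 or ONP replicate 6 (adjusted p = 0.0604, 0.0517 and 0.0522). The mitochondrial GTPase Rhot1, a partner in the same transport, had a log2 difference of 0.02 (SE 0.267). Of 23 neuropeptide genes 3 were higher and 0 lower in ONH: Scg2 by 4.08 (SE 0.979, adjusted p = 0.0169), the enkephalin precursor Penk by 3.70 (SE 0.780, adjusted p = 0.00751) and the amidating enzyme Pam by 0.93 (SE 0.241, adjusted p = 0.0246). Without ONH replicate 1, Scg2 and Pam missed the threshold (adjusted p = 0.0524 and 0.0642), and Pam also did so without ONP replicate 1, 2 or 4 (0.0506 to 0.0536). Penk was not called by limma-voom (adjusted p = 0.167). Of 19 EF-hand genes 3 were higher: the bipolar cell protein Cabp5, the photoreceptor protein Rcvrn and Hpcal1. Kcnip3 was lower, at 33.4 CPM in ONH against 78.4 CPM in ONP. Orm2 was the 1 of 10 acute-phase genes that edgeR called. DESeq2 called 3 higher and 1 lower, against 1150 and 891 of all 16341 genes it tested. With limma-voom 2 were higher and 1 lower, against 673 and 663 of all 16355 genes. In batch 1 alone edgeR called 3 of 11 higher and 1 lower, against 8.57% and 8.01% of all genes.

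Among the 8 lists of relatives, that of the MAB21 family and eye transcription factors had the largest share of called genes. Of its 17 tested genes 8 were higher in ONH and 0 lower, against 4.43% and 3.04% of all genes. Its median log2 difference was 1.28, against 0.02 over all genes tested. Otx2 rose by 5.74 (SE 0.801, adjusted p = 3.46e-04), without overlap of the libraries. Tfap2b rose by 4.03 (adjusted p = 0.0411), but this call was lost when any of 10 single libraries was left out, with a difference of 2.02 and an adjusted p of 0.200 and 0.201 without the bridging ONH or ONP library. Other calls, named after their values were seen, included Vax2, Rax, Six3 and Six6, with log2 differences of 2.36, 2.33, 1.28 and 1.23, and Tfap2a at 0.266 CPM in ONH. With batch 1 alone 9 of 15 tested genes were higher, against 8.57% of all genes. Without the bridging ONH library, and likewise without the bridging ONP library, 6 of 17 were higher, against 3.97% and 4.06% of all genes.

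**Figure D4:**
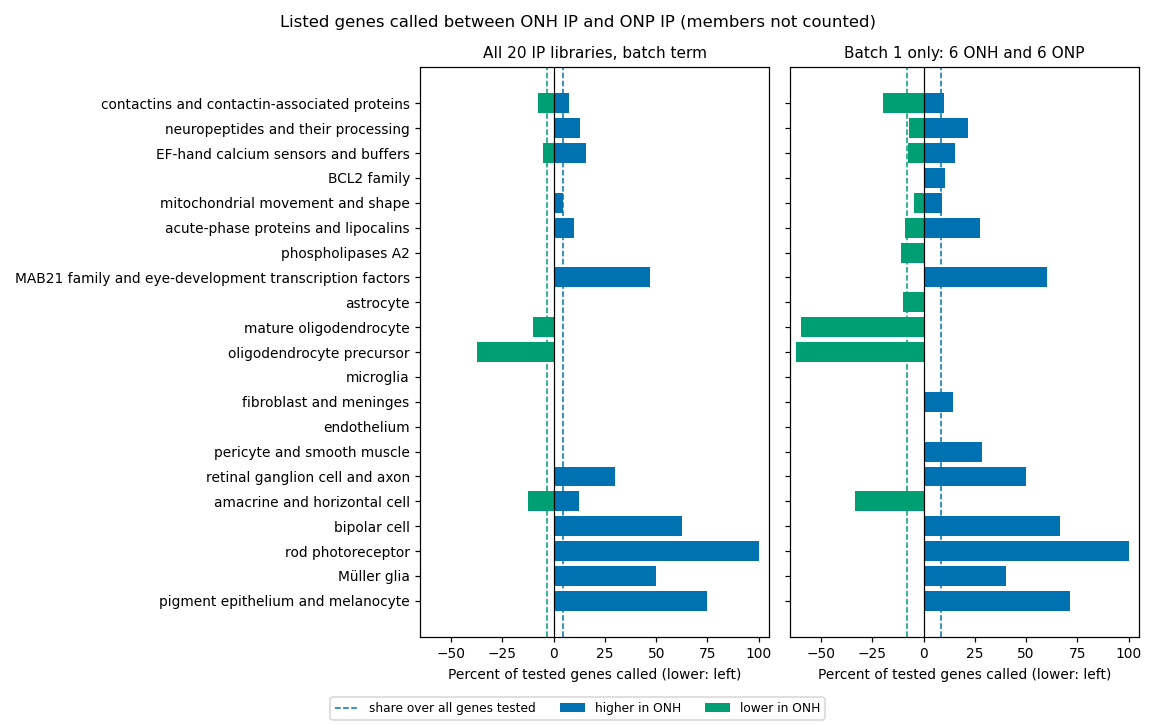
Percent of the tested genes of each list that edgeR called higher (right) or lower (left) in ONH than in ONP, for all 20 IP libraries with a batch term and for batch 1 alone. Dashed lines give the share over all genes tested. The rod, bipolar and pigment markers reach farthest to the right in both panels, and the 9 genes are not counted.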

How the data were processed

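Per the labels, poly(A) RNA of 26 libraries was captured and amplified with an ultra-low input kit. Reads were quantified with Salmon 1.6.0 on mm10, per the submitters' processing notes, and strand use and transcript annotation are not given in the sources used here. The deposited table holds the estimated counts that the authors obtained, as whole numbers, for 54532 genes, of which 54409 matched a GENCODE M21 symbol. The members and gene lists were chosen with earlier results of these data known. Named genes were the 9 members, up to 3 called genes per list in the majority direction and 2 in the other, the most abundant marker of a cell list and, per member, the 2 genes closest by Pearson's r of log2(CPM + 1) among 9524 genes with a mean of at least 10 CPM. Neurofilament, cell type and family genes beyond these (Nefl, Nefm, Nefh, Cntnap1, Bax, Rhot1, Mab21l2, Nbea, Pax8) were named after their values were seen, and some genes that met the rule are not reported here.

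CPM used TMM factors over all 26 libraries. ONH IP and ONP IP were compared on the 20 IP libraries with a batch term, and retina IP and input on 12 libraries, in R 4.3.3 with edgeR 4.0.16 (filterByExpr with a minimum count of 10 and total of 15, quasi-likelihood F test, Benjamini-Hochberg adjustment, threshold 0.05). The scripts were tested on simulated data. The SE given for an edgeR difference is its absolute log2 value divided by the square root of the F statistic. Alternatives were RLE size factors, no filter, DESeq2 1.42.0, limma 3.58.1 (voom), other sets of libraries, a replicate block and leaving out each library.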

Additional observations from a re-analysis of the deposited data

Results flagged for a closer look

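Of 32 sets of levels, each 1 of the 9 genes in 1 of the 4 groups with more than 3 counts, 7 held a library far from the rest of its group by Dixon's criterion. Chance meets that criterion in about 1 of 20 groups only for normal values from a single population. The levels here include 0, and the nerve groups mix batches, so that rate is no measure for these sets. The bridging ONH library was the high one for 3 genes: Mgarp at 899.8 CPM against 67.3 to 391 in the others, Mab21l1 at 61.4 CPM against 0.984 to 14.6, and Scgn at 61.6 CPM against 0 to 1.68. In the same library rod markers summed to 40422 CPM, and their part in these levels was not tested. In ONP, Scgn was at 0.504 CPM in the bridging library and 0 in the others, Mab21l1 was at 0.732 CPM in replicate 6 against 0 to 0.288, and Cartpt was at 37.9 CPM in replicate 5 against 1.45 to 4.56. In retina input 2, Scgn was at 54.1 CPM against 5.29 to 18.6 in the other inputs.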

How the results depend on the processing

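The count of genes with every ONH library above every ONP library stayed at 7 of 9 with raw library totals, RLE size factors or without the bridging libraries. Of ONH against ONP, 725 genes were higher and 498 lower. DESeq2 gave 1150 and 891, all 26 libraries in one fit 385 and 126, the 14 nerve libraries alone 1133 and 1161, and batch 1 alone 1264 and 1181, and without a filter 320 were lower. Leaving out single libraries gave 409 to 869 higher and 192 to 697 lower, and moved a count by over 1.5 times without ONH replicate 1 (409 and 192), ONH replicate 3 (421 and 219), ONP replicate 2 (479 and 274) or ONP replicate 4 (457 and 263). It moved the lower count alone without ONH replicate 5 (305) or ONP replicate 1 (284) or 6 (281).

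Replicate numbers were not taken as pairs in the main fits, since the labels do not tie libraries to animals. Even so, same-numbered ONH and ONP libraries correlated at r = 0.062 to 0.41 (6 of 6 best with their own number). Retinal ones did so at -0.098 to 0.23 (5 of 6). The main fits and their SEs leave out any such pairing. With the replicate number as a block, edgeR called 1481 genes higher and 1637 lower in ONH, against 1133 and 1161 for the same 14 libraries without it. In the retina the block gave 0 and 0, and Bok had an adjusted p of 0.196.

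In the retina edgeR called 0 genes in either direction. DESeq2 called 956 higher and 1076 lower, all 26 libraries in one fit 1419 and 1452, and no filter 152 and 41. Leaving out libraries gave 0 to 341 higher and 0 to 40 lower, with 341 and 40 without IP replicate 1, 226 and 20 without IP replicate 5, and 1 lower without input 2. The retinal log2 difference of Mab21l1 became -0.0639 with RLE factors, -0.0647 with DESeq2, -0.0652 with all 26 libraries, and -0.14 to 0.11 without single libraries, and that of Mgarp 0.16 without input 2. Between ONH and ONP, Sncg became -0.14 and Gad1 -0.44 in batch 1 alone, and ranged from -0.22 to 0.30 and from -0.43 to 0.97 without single libraries. The causes were not tested. Of the 9 genes' ONH to ONP differences, those resting on few ONP counts moved most: Orm3 became 8.65 without ONP replicate 5 and 6.04 in limma-voom, and Cntnap4 4.83 in limma-voom. Depth limits Cntnap4, Scgn and Orm3, with 2, 7 and 2 counts in ONP.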
